A study of Homo sapiens with 12 samples.

Results

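PANC1 cells cultured in 7.5% gelatin methacryloyl (GelMA) were compared with PANC1 cells cultured in collagen, across every gene that reached 1 RPKM (reads per length of gene and size of library) in at least 2 of the 4 libraries of these groups. Of 16299 genes in the deposited table, 14363 met this rule and 1936 did not. In 7.5% GelMA, 33 of 34 hypoxia-induced genes and 15 of 16 glycolytic enzyme genes were lower than in collagen. Over all genes compared, 27.7% were lower. HK2, LDHA, PGK1, ENO2 and ALDOC belong to both sets. SLC2A3, CA9 and EFNA3 of the hypoxia set reached 1 RPKM in the collagen libraries only, so they had to be lower. The fatty acid desaturase genes, the haem oxygenase gene HMOX1 and several fibril-forming collagen genes were lower too. COL1A1, SPARC, BMP4, CD24 and CYP1A1, a target of the aryl hydrocarbon receptor, were higher.

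PANC1 is an established human line of pancreatic ductal adenocarcinoma with mesenchymal traits. GelMA is gelatin, that is, denatured collagen, carrying methacryloyl groups through which it can be cross-linked into a gel. The 3 PANC1 groups were cells in collagen, in 5% GelMA and in 7.5% GelMA, and the matching groups of BXPC3, a more epithelial pancreatic cancer line without functional SMAD4, were used for comparison. Every group had 2 libraries, and all cells were grown in high-glucose DMEM with serum and antibiotics, per the labels. Gel stiffness, time in culture, cell density and whether the 2 libraries of a group came from separate cultures are not stated in the labels, so the spread behind each p-value is that between these libraries and may be technical. In such bulk samples, fewer cells expressing a gene and less RNA per cell cannot be told apart.

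Values are log2 RPKM, on which 0 is 1 RPKM and a difference of 1 is a 2-fold change. Differences are 7.5% GelMA minus collagen unless another pair is named, each is given ± its standard error, and a gene is called higher or lower at an adjusted p under 0.05 in a limma fit over all 12 libraries. The number of reads behind each value is unknown. The 4 libraries had been brought to a common distribution, so that a change shared by most genes would not show. The line's marker genes were present. SMAD4 had 3.99 and 3.94 log2 RPKM in 7.5% GelMA, against 4.54 and 4.55 in collagen, and was at most -5.51 in BXPC3 in collagen. All 6 ductal epithelial markers and all 4 mesenchymal markers reached 1 RPKM. The summed level of the ductal markers was 5748 and 6492 RPKM in 7.5% GelMA, against 5457 and 4651 RPKM in collagen, and that of the mesenchymal markers was 3372 and 3278 RPKM, against 3510 and 3515 RPKM. KRT8, KRT18 and KRT19 make up most of the ductal sum and VIM most of the mesenchymal sum. KRT7, KRT8, KRT18, EPCAM and CDH1 were higher. KRT19 was lower, with 9.72 and 10.03 log2 RPKM in 7.5% GelMA, against 10.37 and 10.09 in collagen. ZEB1 and FN1 were lower, and VIM and CDH2 did not pass. Of the fibroblast markers only COL1A1 and ACTA2 were in the table, of the immune markers only CD14 reached 1 RPKM, of the endothelial markers only KDR did, in 1 library of 7.5% GelMA, and no acinar or endocrine marker did.

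Of the 14363 genes, 4046 were higher in 7.5% GelMA (28.2%) and 3983 were lower (27.7%), together 55.9%. At least 2-fold changes were fewer, with 729 genes higher (5.08%) and 673 lower (4.69%). The median difference over all genes was -0.0002 log2, and the 10th and 90th percentiles were -0.66 and 0.66. The median standard error was 0.08 log2, and the smallest difference that passed was 0.09 log2, so a call alone says little about size. Most genes (13637) reached 1 RPKM in all 4 libraries. A further 218 did so in both 7.5% GelMA libraries only and 226 in both collagen libraries only, and these had to differ by the way they were chosen. Of the 218, 177 are among the 4046 higher genes, and of the 226, 177 are among the 3983 lower genes. Of the genes named below, TAC3, TNS4, GLIS1, PARM1, TIMP3 and SLC52A1 are of the first kind and SLC2A3, CA9, EFNA3, CXCL5, BCHE, PCDH15 and MME of the second, so their p-values are no evidence of a difference. At the edge of the rule, SLC52A1 was just inside, with 0.00 and 0.09 log2 RPKM in 7.5% GelMA, against -0.74 and -1.71 in collagen. WASH5P was just outside, with -0.63 and -1.19 in 7.5% GelMA, against 0.06 and -0.01 in collagen.

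**Figure D1:**
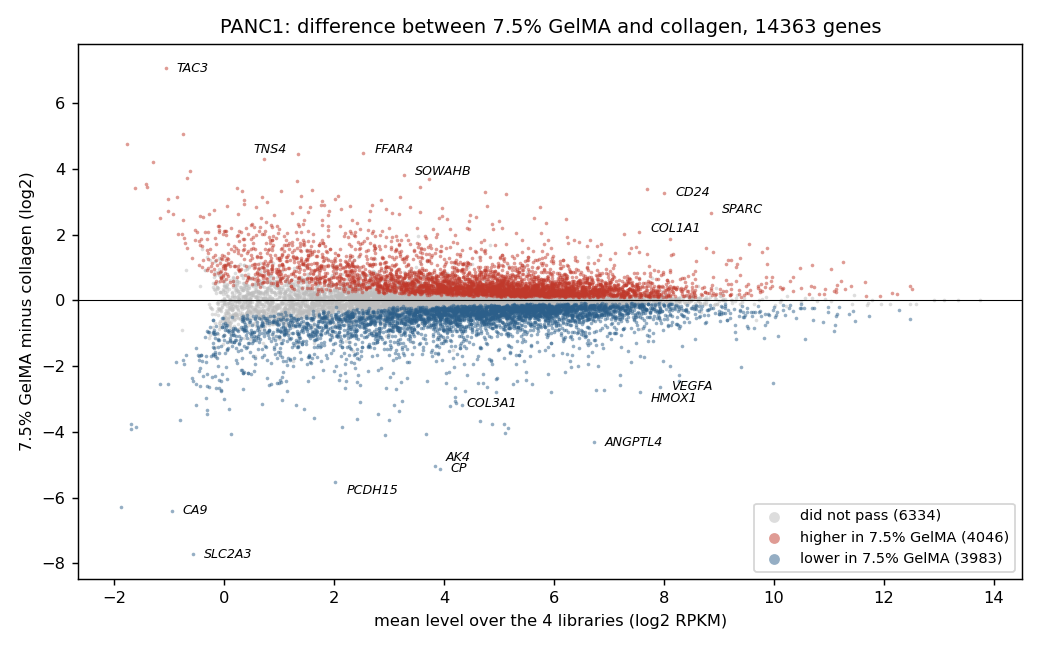
Difference between 7.5% GelMA and collagen (vertical axis, log2) against the mean level over the 4 PANC1 libraries (horizontal axis, log2 RPKM), 1 point per gene. Red points are the 4046 genes higher in 7.5% GelMA, blue points the 3983 lower genes and grey points the rest. SLC2A3 and CA9 lie lowest at a low mean level, ANGPTL4 and VEGFA fell at a high level, and TAC3 lies highest.

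Cells measure oxygen through prolyl hydroxylases (EGLN1 to EGLN3) that mark the alpha subunits of hypoxia-inducible factor (HIF) for destruction by the VHL ubiquitin ligase. When oxygen or the activity of these enzymes is low, HIF alpha pairs with ARNT, binds the core letters ACGTG or GCGTG near its target genes and raises glucose uptake, glycolysis, acid export and vessel-forming factors. Pancreatic ductal tumours are known for low oxygen and a dense collagen stroma. The aryl hydrocarbon receptor, AHR, is a related factor that also pairs with ARNT and binds a GCGTG core, and interferon-stimulated genes carry an element of GAAA, any 2 bases and GAAA that is bound by STAT and IRF factors.

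The promoter sequences below were chosen because they show these 3 elements in genes that carried the main differences. They are from RefSeq on GRCh38.p14, run 5′ to 3′ along the gene's strand, and end 1 base before the RefSeq transcript start, which can differ from the GENCODE start given for a gene, except for IFIT3, whose window ends 41 bases before it. Capitals mark the element on either strand, ACGTG (or CACGT) in CA9, AK4, ALDOC and P4HA1, and GCGTG in CYP1A1. In ISG15 and IFIT3 they mark GAAA, any 2 bases and GAAA again (or its complement). Only the element named for a gene is marked. Others occur unmarked, such as ACGTG in the ISG15 window, CACGT in that of CYP1A1 and GCGTG in those of ALDOC and IFIT3. The windows are CA9 at chr9:35673808-35673927 (plus strand), AK4 at chr1:65147432-65147551 (plus strand), ALDOC at chr17:28576896-28577015 (minus strand), P4HA1 at chr10:73096867-73096986 (minus strand), CYP1A1 at chr15:74725529-74725648 (minus strand), ISG15 at chr1:1013377-1013496 (plus strand) and IFIT3 at chr10:89327837-89327956 (plus strand).
CA9: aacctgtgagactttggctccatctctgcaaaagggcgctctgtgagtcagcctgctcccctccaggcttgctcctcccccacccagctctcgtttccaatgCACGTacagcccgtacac
AK4: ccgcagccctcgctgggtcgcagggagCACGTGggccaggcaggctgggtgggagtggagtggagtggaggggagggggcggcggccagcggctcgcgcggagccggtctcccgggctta
ALDOC: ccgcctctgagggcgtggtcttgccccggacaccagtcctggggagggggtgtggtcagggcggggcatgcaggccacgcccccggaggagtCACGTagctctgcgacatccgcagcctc
P4HA1: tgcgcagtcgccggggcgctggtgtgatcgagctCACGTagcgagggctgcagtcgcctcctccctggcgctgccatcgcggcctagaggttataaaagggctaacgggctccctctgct
CYP1A1: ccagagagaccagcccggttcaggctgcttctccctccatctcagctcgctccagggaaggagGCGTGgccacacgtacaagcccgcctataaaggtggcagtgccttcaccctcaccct
ISG15: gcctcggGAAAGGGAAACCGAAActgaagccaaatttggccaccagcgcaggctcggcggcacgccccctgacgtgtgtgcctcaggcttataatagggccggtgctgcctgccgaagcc
IFIT3: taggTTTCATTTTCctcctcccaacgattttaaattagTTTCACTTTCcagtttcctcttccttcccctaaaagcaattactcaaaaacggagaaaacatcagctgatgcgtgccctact

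In the 250 bases before the start, ACGTG on either strand was found in 16 of the 29 hypoxia targets with a RefSeq promoter (55.2%), in 23.4% of the 10712 genes of the comparison that have one, and in 18.7% of all 27305 promoters. GAAA, any 2 bases and GAAA was found in 11 of 17 interferon-response genes (64.7%), against 2.17% of the genes compared and 3.07% of all promoters. GCGTG was found in 3 of 6 aryl hydrocarbon receptor genes (50%), close to the 46% of the genes compared, and in 31.9% of all promoters. TGATGNAA, the element of amino acid response genes, was found in 2 of 25 genes of that list (8%) and in 3.19% of all promoters, and TCACNCCAC, a sterol element, in 1 of 21 cholesterol genes (4.76%) and in 0.875%. A match describes these letters in this window and does not show that a factor binds there.

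Hypoxia targets were lower in 7.5% GelMA with 1 exception. Of 34 listed genes, 33 were lower and 1 was higher, and the median difference was -2.44 log2. The 33 include SLC2A3, CA9 and EFNA3, which had to be lower by the way they were chosen. Among glucose genes, SLC2A3, a high-affinity glucose transporter (ENSG00000059804, chromosome 12, 7919230 to 7936275), had -4.00 and -4.86 log2 RPKM in 7.5% GelMA, against 3.22 and 3.37 in collagen. Both 7.5% GelMA libraries were far under 1 RPKM and both collagen libraries above it. The difference was -7.73 ± 0.39 (adjusted p = 2.20e-07), and at such low levels its size depends on the unknown offset of the log scale. On a log2(RPKM + 1) scale it was -3.37. SLC2A1, the widely expressed glucose transporter gene, fell less, with 5.83 and 6.05 in 7.5% GelMA, against 7.30 and 7.29 in collagen.

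Regulators of glycolysis and pyruvate use fell too. PFKFB4, which sets phosphofructokinase activity, had 2.86 and 2.78 log2 RPKM in 7.5% GelMA, against 6.51 and 6.46 in collagen, a difference of -3.67 ± 0.17 (adjusted p = 1.14e-07). PDK1, a kinase that keeps pyruvate out of mitochondria, had 2.67 and 2.80 in 7.5% GelMA, against 5.92 and 5.91 in collagen, a difference of -3.18 ± 0.11. Neither gene's groups overlapped, and PFKFB3 fell as well (-2.37 ± 0.12). HK2, the hexokinase, fell by a difference of -2.65 ± 0.10.

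Of the 3 pH genes, those of acid export fell and a related gene rose. CA9, a cell-surface carbonic anhydrase (ENSG00000107159, chromosome 9, 35673856 to 35681159), had -4.55 and -3.74 log2 RPKM in 7.5% GelMA, against 2.18 and 2.31 in collagen, a difference of -6.39 ± 0.47 (adjusted p = 2.56e-06). Its 7.5% GelMA libraries were both under 1 RPKM, and on the log2(RPKM + 1) scale the difference was -2.44. SLC16A3, the lactate exporter gene, had 7.10 and 7.13 in 7.5% GelMA, against 9.09 and 9.11 in collagen. CA12, another cell-surface carbonic anhydrase, was the exception of the list, with 2.80 and 2.64 in 7.5% GelMA, against 2.18 and 1.56 in collagen, and was higher by 0.85 ± 0.27 (adjusted p = 0.022). That call was lost without collagen replicate 2 (0.54 log2, adjusted p = 0.17) or either 7.5% GelMA replicate (adjusted p = 0.102 and 0.0541).

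All 5 secreted or cell-surface signalling genes of the list fell. ANGPTL4, a secreted inhibitor of lipoprotein lipase (ENSG00000167772, chromosome 19, 8363289 to 8374373), had 4.48 and 4.66 log2 RPKM in 7.5% GelMA, against 8.95 and 8.82 in collagen, so its 7.5% GelMA level was 0.0504 times that in collagen. VEGFA, the vascular endothelial growth factor, had 6.61 and 6.63 in 7.5% GelMA, against 9.13 and 9.36 in collagen, a difference of -2.62 ± 0.07 (adjusted p = 3.81e-09). The ephrin gene EFNA3 fell by a difference of -2.65 ± 0.35, the stanniocalcin gene STC2 by -1.37 ± 0.15 and ADM, which encodes the vasodilator peptide adrenomedullin, by -0.96 ± 0.09.

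The genes of the oxygen-sensing feedback loop fell with the other targets. EGLN3 had 1.76 and 1.93 log2 RPKM in 7.5% GelMA, against 4.26 and 4.10 in collagen, a difference of -2.33 ± 0.27 (adjusted p = 5.62e-05), and EGLN1 differed by -1.62 ± 0.07. The histone demethylase gene KDM3A differed by -2.01 ± 0.10 and ANKRD37 by -3.06 ± 0.21. In contrast, mRNA of the HIF alpha subunits was higher. HIF1A had 6.78 and 6.77 in 7.5% GelMA, against 5.77 and 5.67 in collagen, higher by 1.05 ± 0.09 (adjusted p = 9.07e-06), and EPAS1, which encodes another HIF alpha subunit, was higher by 0.38 ± 0.05 (adjusted p = 9.52e-05). VHL was lower by a small amount (-0.26 ± 0.06), as was the partner subunit gene ARNT (-0.20 ± 0.05), its call lost without collagen replicate 2 (adjusted p = 0.0676) or 7.5% GelMA replicate 2 (adjusted p = 0.0558). HIF1AN, an asparaginyl hydroxylase that inhibits HIF, was higher (0.43 ± 0.04). HIF alpha is controlled mainly at the level of the protein, which was not measured.

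Mitochondrial and stress genes of the hypoxia list fell in all 7 cases. AK4, a mitochondrial adenylate kinase (ENSG00000162433, chromosome 1, 65147549 to 65232145), had 1.20 and 1.44 log2 RPKM in 7.5% GelMA, against 6.35 and 6.34 in collagen, a difference of -5.02 ± 0.19 (adjusted p = 3.70e-08). NDRG1 had 3.29 and 3.12 in 7.5% GelMA, against 6.98 and 6.94 in collagen. DDIT4, an inhibitor of the growth kinase mTORC1, was among the most abundant of the list and had 8.73 and 8.73 in 7.5% GelMA, against 11.19 and 11.28 in collagen, a difference of -2.51 ± 0.06 (adjusted p = 2.40e-09). The mitophagy receptor genes BNIP3 and BNIP3L differed by -2.56 ± 0.35 and -2.54 ± 0.07. MIR210HG, the host transcript of a hypoxia-induced microRNA and not a member of the list, had 1.68 and 1.61 in 7.5% GelMA, against 5.71 and 5.69 in collagen. HILPDA and PLIN2, lipid droplet genes known to respond to hypoxia, were lower (-1.69 ± 0.09 and -1.65 ± 0.13), and G0S2, an inhibitor of the main triglyceride lipase (-3.10 ± 0.42).

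**Figure D2:**
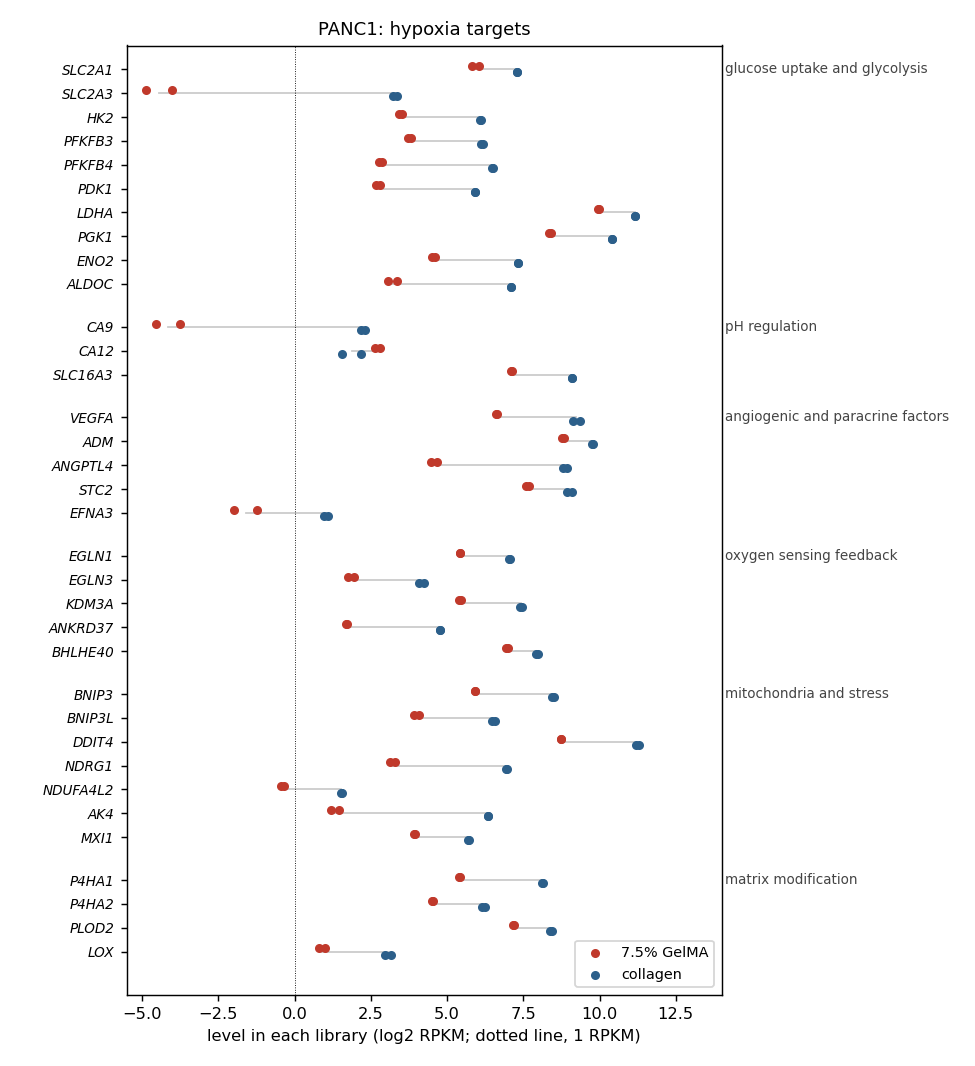
Level of the 34 hypoxia targets in each PANC1 library (log2 RPKM), in red for the 2 libraries of 7.5% GelMA and in blue for the 2 of collagen, with grey lines between the group means and genes grouped by role. In every row but that of CA12 the red points lie left of the blue ones, and the longest lines are those of SLC2A3 and CA9.

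Glycolysis genes fell as a group. HK2, LDHA, PGK1, ENO2 and ALDOC also belong to the hypoxia list, as do PDK1 and SLC16A3 of lactate and pyruvate handling. Of 16 enzyme genes, 15 were lower and the other, the muscle-type phosphofructokinase gene PFKM, was higher (0.20 ± 0.07), a call lost when any 1 of the 4 libraries was left out (adjusted p between 0.0627 and 0.131). ALDOC, an aldolase (ENSG00000109107, chromosome 17, 28573115 to 28577264), had 3.36 and 3.07 log2 RPKM in 7.5% GelMA, against 7.10 and 7.09 in collagen, a difference of -3.88 ± 0.15 (adjusted p = 4.66e-08), and GPI, an isomerase of the early pathway, had 7.02 and 7.08 in 7.5% GelMA, against 9.48 and 9.51 in collagen. The abundant enzymes fell less. GAPDH had 11.45 and 11.53 in 7.5% GelMA, against 11.99 and 11.93 in collagen, a difference of -0.47 ± 0.05, and ENO1 and PKM differed by -0.49 ± 0.06 and -0.67 ± 0.04. ALDOA had 1.27 and 0.69 in 7.5% GelMA, against 3.24 and 3.25 in collagen, low for this usually abundant enzyme and uncertain, since the gene overlaps other annotated genes. The genes that carry pyruvate into mitochondria, MPC1 and MPC2, were higher (0.74 ± 0.12 and 0.47 ± 0.07), as was SLC16A1, a lactate and pyruvate carrier (0.67 ± 0.07).

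Respiratory chain genes changed little. Of 33 genes, 18 were higher and 5 were lower, with a median difference of 0.14 log2. CYCS, cytochrome c, was higher (0.35 ± 0.04) and ATP5F1B (0.31 ± 0.05), and SDHA was lower (-0.25 ± 0.03). The count of higher genes was 10 without collagen replicate 2 and 11 without either 7.5% GelMA replicate, and that of lower genes was 3 without collagen replicate 1 or 7.5% GelMA replicate 1. Of 13 genes of the mitochondrial genome, 8 were higher and 0 were lower by this fit or at an unadjusted p under 0.05. MT-CO1 had the top value in all 4 libraries, 13.73, since a gene that keeps the top rank in every library is given the same value by the common distribution. MT-ND3 was higher by 1.17 ± 0.07 and MT-ATP8 by 1.63 ± 0.17.

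Oxidative stress genes were more often lower than higher, while iron genes, with a median difference of -0.06 log2, went both ways. Over all genes 28.2% were higher and 27.7% lower. Of 10 iron genes, 4 were lower and 2 were higher, the iron exporter gene SLC40A1 (0.93 ± 0.24) and the importer gene SLC11A2 (0.16 ± 0.04). Of these higher calls 1 was lost without either collagen replicate, and neither passed without 7.5% GelMA replicate 2. CP, ceruloplasmin, a copper-carrying ferroxidase (ENSG00000047457, chromosome 3, 149162410 to 149222055), had 1.46 and 1.26 log2 RPKM in 7.5% GelMA, against 6.43 and 6.51 in collagen, a difference of -5.11 ± 0.24 (adjusted p = 1.22e-07). HMOX1, haem oxygenase, which releases iron from haem, had 6.15 and 6.19 in 7.5% GelMA, against 8.88 and 9.02 in collagen, a difference of -2.78 ± 0.13 (adjusted p = 1.60e-07). FTH1, the ferritin heavy chain, was lower (-0.64 ± 0.11), although reads of its many pseudogenes make this value uncertain, and the transferrin receptor gene TFRC had 8.56 and 8.53 in 7.5% GelMA, against 8.37 and 8.48 in collagen, and did not pass. Of 18 targets of NRF2, a factor of the oxidative stress response, 11 were lower, 3 were higher and the median was -0.43 log2. The cystine transporter gene SLC7A11 was lower (-1.12 ± 0.15), the glutathione synthesis gene GCLM (-0.74 ± 0.10) and OSGIN1 (-1.10 ± 0.18). The higher genes included the pentose phosphate enzyme gene PGD (0.58 ± 0.09) and the drug exporter gene ABCC3 (0.31 ± 0.05). HMOX1 belongs to both the iron and the NRF2 list, and SLC7A11 also belongs to the amino acid list below.

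Genes of the aryl hydrocarbon receptor list moved both ways, and those for monooxygenases rose. CYP1A1, a monooxygenase and the classical target (ENSG00000140465, chromosome 15, 74719542 to 74725610), had 3.18 and 3.23 log2 RPKM in 7.5% GelMA, against 0.06 and 0.57 in collagen, a difference of 2.89 ± 0.28 (adjusted p = 1.52e-05). CYP1B1, a related monooxygenase at a far higher level, had 9.68 and 9.58 in 7.5% GelMA, against 8.08 and 8.23 in collagen, so its level in 7.5% GelMA was 2.77 times that in collagen. TIPARP, a receptor-induced ADP-ribosyltransferase that acts as a feedback inhibitor, had 6.76 and 6.80 in 7.5% GelMA, against 5.58 and 5.53 in collagen. AHR itself was higher by 0.51 ± 0.06. Of the 7 listed genes, 4 were higher, AHR included, and 3 were lower, namely the repressor gene AHRR (-0.37 ± 0.07), the quinone reductase gene NQO1 (-0.40 ± 0.15) and ARNT. The call of NQO1 was lost without any 1 of the 4 libraries (adjusted p between 0.0845 and 0.143), and the count of lower genes was 1 without collagen replicate 2 or 7.5% GelMA replicate 2.

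Cholesterol synthesis and fatty acid synthesis, both under SREBP factors, went different ways. Of 20 cholesterol synthesis enzyme genes, 14 were higher and 0 were lower by this fit, with a median difference of 0.45 log2. At an unadjusted p under 0.05, 1 enzyme gene was lower. SQLE, squalene epoxidase, had 6.87 and 6.92 log2 RPKM in 7.5% GelMA, against 6.06 and 5.90 in collagen, a difference of 0.91 ± 0.05 (adjusted p = 4.38e-07). SC5D was higher by 1.07 ± 0.08 and EBP by 0.94 ± 0.05. The uptake and regulator genes did not follow the enzymes, since 5 of 8 were lower and 0 higher. INSIG1, a feedback inhibitor of SREBP activation, was lower (-0.58 ± 0.09) and SREBF2, the SREBP gene of the sterol branch (-0.17 ± 0.03).

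Of 12 fatty acid synthesis genes, 7 were lower and 2 were higher, with a median of -0.39 log2. SCD, stearoyl-CoA desaturase, had 10.63 and 10.61 log2 RPKM in 7.5% GelMA, against 11.53 and 11.60 in collagen, a difference of -0.94 ± 0.16 (adjusted p = 0.000747). The polyunsaturated fatty acid desaturase genes FADS1 and FADS2 were lower (-1.08 ± 0.08 and -0.76 ± 0.09). SREBF1, the SREBP gene of this branch, had 6.43 and 6.47 in 7.5% GelMA, against 7.66 and 7.57 in collagen. The 2 higher genes were ELOVL6, an elongase at a low level (2.03 ± 0.18), and ACSL1, which activates long-chain fatty acids (0.57 ± 0.11). FFAR4, a receptor for long-chain fatty acids and not in the list, was among the genes that rose most, with 4.81 and 4.73 in 7.5% GelMA, against 0.69 and -0.11 in collagen.

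Amino acid supply genes fell, most of them by under 2-fold. ATF4 is the factor that cells use to raise amino acid synthesis, amino acid import and tRNA charging when amino acids run short. Of 31 listed genes, 19 were lower, 3 were higher and the median difference was -0.59 log2. SESN2, a leucine sensor that restrains mTORC1, had 3.41 and 3.45 in 7.5% GelMA, against 4.71 and 4.91 in collagen, a difference of -1.38 ± 0.11 (adjusted p = 4.72e-06). ASNS, asparagine synthetase, was lower (-1.98 ± 0.34), CHAC1, a glutathione-degrading enzyme (-1.07 ± 0.13), and PCK2 (-0.93 ± 0.08). SLC38A2, a glutamine transporter, was higher (0.51 ± 0.07), as were ATF5 (0.54 ± 0.07) and the serine pathway enzyme SHMT2 (0.18 ± 0.04), the last with its call lost without 7.5% GelMA replicate 2 (adjusted p = 0.0579). SLC7A5, the large neutral amino acid transporter, had 8.40 and 8.57 in 7.5% GelMA, against 8.58 and 8.72 in collagen, and did not pass.

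Of 20 cytosolic tRNA synthetase genes, 12 were lower and 2 were higher. The glycine enzyme gene GARS1 had 7.76 and 7.88 in 7.5% GelMA, against 8.46 and 8.49 in collagen, a difference of -0.66 ± 0.07 (adjusted p = 2.05e-05). The 2 higher genes were QARS1 (0.24 ± 0.04) and RARS1 (0.23 ± 0.04). Of 24 genes of the unfolded protein response, 15 were lower and 1 was higher, SDF2L1 (0.27 ± 0.07). That call was lost without collagen replicate 2 (0.15 log2, adjusted p = 0.0616) or 7.5% GelMA replicate 2 (adjusted p = 0.0534). HSPA5, the main chaperone of the endoplasmic reticulum, had 10.37 and 10.42 in 7.5% GelMA, against 10.95 and 11.05 in collagen, and DDIT3, which encodes the stress factor CHOP, had 5.36 and 5.38 in 7.5% GelMA, against 6.37 and 6.48 in collagen.

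Most ribosomal protein genes fell by under 2-fold, 51 of 63 being lower, 1 higher and the median difference -0.33 log2. RPL23 had 7.70 and 7.68 in 7.5% GelMA, against 8.55 and 8.38 in collagen, RPS16 had 12.18 and 12.18 in 7.5% GelMA, against 12.75 and 12.75 in collagen, and RPL29 was the higher one (0.18 ± 0.05), a call lost without collagen replicate 2 (adjusted p = 0.0623) or 7.5% GelMA replicate 2 (adjusted p = 0.0717). Nearly identical pseudogenes exist for most of these genes, so single values are uncertain. Ribosome biogenesis factors did not fall with them, as 10 of 19 were higher and 2 were lower. POLR1A, the largest subunit of the RNA polymerase that makes ribosomal RNA, was higher (0.56 ± 0.05), and FBL, fibrillarin, was lower (-0.43 ± 0.03). Of 11 histone genes, which share sequence and are therefore uncertain, 5 were higher and 0 were lower by this fit or at an unadjusted p under 0.05. Poly-A RNA was sequenced, so histone transcripts without a poly-A tail are not covered by these values. H2BC12 had 9.96 and 10.07 in 7.5% GelMA, against 8.87 and 8.61 in collagen and H1-2 had 8.24 and 8.32 in 7.5% GelMA, against 7.05 and 6.55 in collagen.

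Interferon-stimulated genes were mixed. Of 25 genes, 11 were higher and 6 were lower, with a median of 0.08 log2. Over all genes 28.2% were higher and 27.7% lower. OASL, a relative of the antiviral oligoadenylate synthetases, had 3.81 and 4.45 log2 RPKM in 7.5% GelMA, against 2.26 and 2.33 in collagen, a difference of 1.83 ± 0.16 (adjusted p = 8.65e-06). IFIT2, IFIT3 and ISG15, antiviral effectors, were higher by 1.51 ± 0.17, 1.42 ± 0.12 and 1.24 ± 0.12. In the other direction, IFITM1, which blocks viral entry, had 3.65 and 3.65 in 7.5% GelMA, against 5.27 and 4.63 in collagen, IFITM3 was lower (-0.70 ± 0.10), and the factor gene IRF1 (-0.48 ± 0.04). Of 13 antigen presentation genes, 4 were higher and 5 lower, the count of higher ones being 2 without collagen replicate 2. The invariant chain gene CD74 was lower (-1.02 ± 0.17), and the peptide-trimming enzyme gene ERAP1 (-0.65 ± 0.04).

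Cytokine and adhesion genes that NF-kB can induce changed in both directions. CXCL2, a neutrophil chemokine, had 0.42 and 0.19 log2 RPKM in 7.5% GelMA, against 2.85 and 2.64 in collagen, a difference of -2.44 ± 0.17 (adjusted p = 2.19e-06). CXCL5 was lower (-2.20 ± 0.30), ICAM1, a leukocyte adhesion molecule, had 7.02 and 7.08 in 7.5% GelMA, against 8.93 and 8.88 in collagen, and CSF1, the macrophage growth factor, was lower (-1.40 ± 0.13). IL18, an inflammasome-processed cytokine, went the other way, with 4.93 and 4.86 in 7.5% GelMA, against 2.94 and 2.50 in collagen, a difference of 2.18 ± 0.13 (adjusted p = 7.85e-07). Of 18 genes, 4 were higher and 6 were lower, near the shares over all genes (28.2% higher and 27.7% lower). CCL2, a monocyte chemokine, had 9.30 and 9.42 in 7.5% GelMA, against 10.07 and 9.87 in collagen, and did not pass, although it did in a fit of the 6 PANC1 libraries alone (adjusted p = 0.000281).

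Collagen genes changed in both directions, 7 of 19 being higher and 9 lower (28.2% higher and 27.7% lower over all genes). COL1A1, the main chain of type I collagen (ENSG00000108821, chromosome 17, 50183289 to 50201632), had 8.48 and 8.71 log2 RPKM in 7.5% GelMA, against 6.52 and 6.49 in collagen, a difference of 2.09 ± 0.07 (adjusted p = 1.69e-08), or 4.26 times the level in collagen. COL1A1 is also a fibroblast marker. Of 6 such markers 2 were in the table. Their summed level was 358 and 419 RPKM in 7.5% GelMA, against 93.0 and 91.0 RPKM in collagen, nearly all of it from COL1A1 itself. The other one, ACTA2, had -0.11 and -0.28 log2 RPKM in 7.5% GelMA, against 0.57 and -0.12 in collagen, and did not pass. The part of such cells in the result was not tested. COL3A1, a fibrillar collagen usually made with type I (ENSG00000168542, chromosome 2, 188974320 to 189012746), had 2.51 and 2.86 in 7.5% GelMA, against 5.62 and 5.84 in collagen, a difference of -3.05 ± 0.12 (adjusted p = 4.66e-08). These fibrillar genes moved in opposite directions, and COL11A1 followed COL3A1, with 5.65 and 5.43 in 7.5% GelMA, against 8.16 and 8.38 in collagen. COL5A1 was higher by 1.01 ± 0.09 and the anchoring fibril gene COL7A1 by 0.99 ± 0.06. The transmembrane collagen gene COL13A1 was lower (-2.66 ± 0.25), and COL9A3 and COL12A1 (-1.83 ± 0.07 and -1.43 ± 0.13). These are transcripts made by the cells, and the collagen protein supplied as gel does not enter the measurement.

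Most enzymes that modify collagen fell. Of 10 genes of hydroxylases and a partner protein, 7 were lower and 1 was higher. The higher one, CRTAP (0.41 ± 0.04), encodes the partner protein, which is not itself a hydroxylase. P4HA1, the catalytic subunit of collagen prolyl hydroxylase (ENSG00000122884, chromosome 10, 73007217 to 73096974), had 5.38 and 5.43 log2 RPKM in 7.5% GelMA, against 8.11 and 8.14 in collagen, a difference of -2.72 ± 0.07 (adjusted p = 4.07e-09), and P4HA2 was lower (-1.68 ± 0.11). PLOD1 and PLOD2, lysyl hydroxylases, were lower (-1.23 ± 0.06 and -1.24 ± 0.07). The cross-linking enzyme genes LOX and LOXL2 fell by differences of -2.16 ± 0.25 and -0.95 ± 0.13, and the transglutaminase gene TGM2 had 4.36 and 4.31 in 7.5% GelMA, against 6.26 and 6.27 in collagen, a difference of -1.93 ± 0.08 (adjusted p = 7.54e-08). SERPINH1, the collagen chaperone, was higher by 0.21 ± 0.04. Of these, P4HA1, P4HA2, PLOD2 and LOX also belong to the hypoxia list.

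Basement membrane genes were split, with 4 higher and 6 lower of 11 (28.2% higher and 27.7% lower over all genes). HSPG2, perlecan, had 9.76 and 9.76 log2 RPKM in 7.5% GelMA, against 8.56 and 8.54 in collagen, a difference of 1.21 ± 0.07 (adjusted p = 5.15e-07). LAMA3, a laminin chain of epithelial basement membranes, was higher (0.98 ± 0.09), and LAMA5 was lower (-0.56 ± 0.07). Among matricellular genes, SPARC, which binds collagen, had 10.24 and 10.13 in 7.5% GelMA, against 7.57 and 7.48 in collagen, a difference of 2.66 ± 0.30 (adjusted p = 4.26e-05). THBS1, which activates latent TGF-beta, had 7.28 and 7.29 in 7.5% GelMA, against 5.49 and 5.40 in collagen. Tenascin C, TNC, was lower (-1.57 ± 0.24), the syndecan gene SDC2 (-1.08 ± 0.15) and osteopontin, SPP1 (-1.43 ± 0.16). Of 6 hyaluronan genes 4 were higher and 0 lower by this fit, among them CD44, a hyaluronan receptor (0.38 ± 0.04), and UGDH, which makes a hyaluronan precursor (0.85 ± 0.08). No hyaluronan gene was lower at an unadjusted p under 0.05 either.

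Integrin genes and focal adhesion genes also changed in both directions, with 9 higher and 11 lower of 29. Over all genes 28.2% were higher and 27.7% lower. ITGB4, the beta chain of the hemidesmosome integrin, had 4.81 and 4.72 log2 RPKM in 7.5% GelMA, against 6.98 and 7.03 in collagen, a difference of -2.24 ± 0.05 (adjusted p = 2.93e-09). ITGB5 and ITGAV, which pair to bind vitronectin, were higher by 0.79 ± 0.04 and 0.54 ± 0.05. ITGB1, the common beta chain of collagen receptors, had 9.40 and 9.36 in 7.5% GelMA, against 9.58 and 9.65 in collagen, a small difference of -0.24 ± 0.05, and the laminin receptor chain ITGA3 was lower (-0.69 ± 0.05). TNS4, a tensin that binds integrin tails, had 3.14 and 2.61 in 7.5% GelMA, against -1.19 and -1.64 in collagen. It reached 1 RPKM in the 7.5% GelMA libraries only, so it had to differ, and the difference was 4.29 ± 0.20, or 2.60 on the log2(RPKM + 1) scale. CAV1, the caveolin of membrane caveolae, had 6.58 and 6.55 in 7.5% GelMA, against 8.14 and 8.10 in collagen, a difference of -1.55 ± 0.03 (adjusted p = 1.34e-09).

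Among proteases, MMP14, a membrane-bound collagenase, had 5.24 and 5.38 in 7.5% GelMA, against 6.52 and 6.66 in collagen, a difference of -1.28 ± 0.06 (adjusted p = 1.14e-07). The related membrane-bound genes MMP15 and MMP24 were higher by 1.26 ± 0.06 and 1.67 ± 0.17. PLAUR, the receptor of the plasminogen activator urokinase, was lower (-1.68 ± 0.09). TIMP1 was higher by 0.71 ± 0.05, and TIMP3, at a low level, had 1.24 and 1.07 in 7.5% GelMA, against -0.30 and -0.54 in collagen. Of 20 genes in the list, 9 were higher and 7 lower, beside 28.2% higher and 27.7% lower over all genes.

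**Figure D3:**
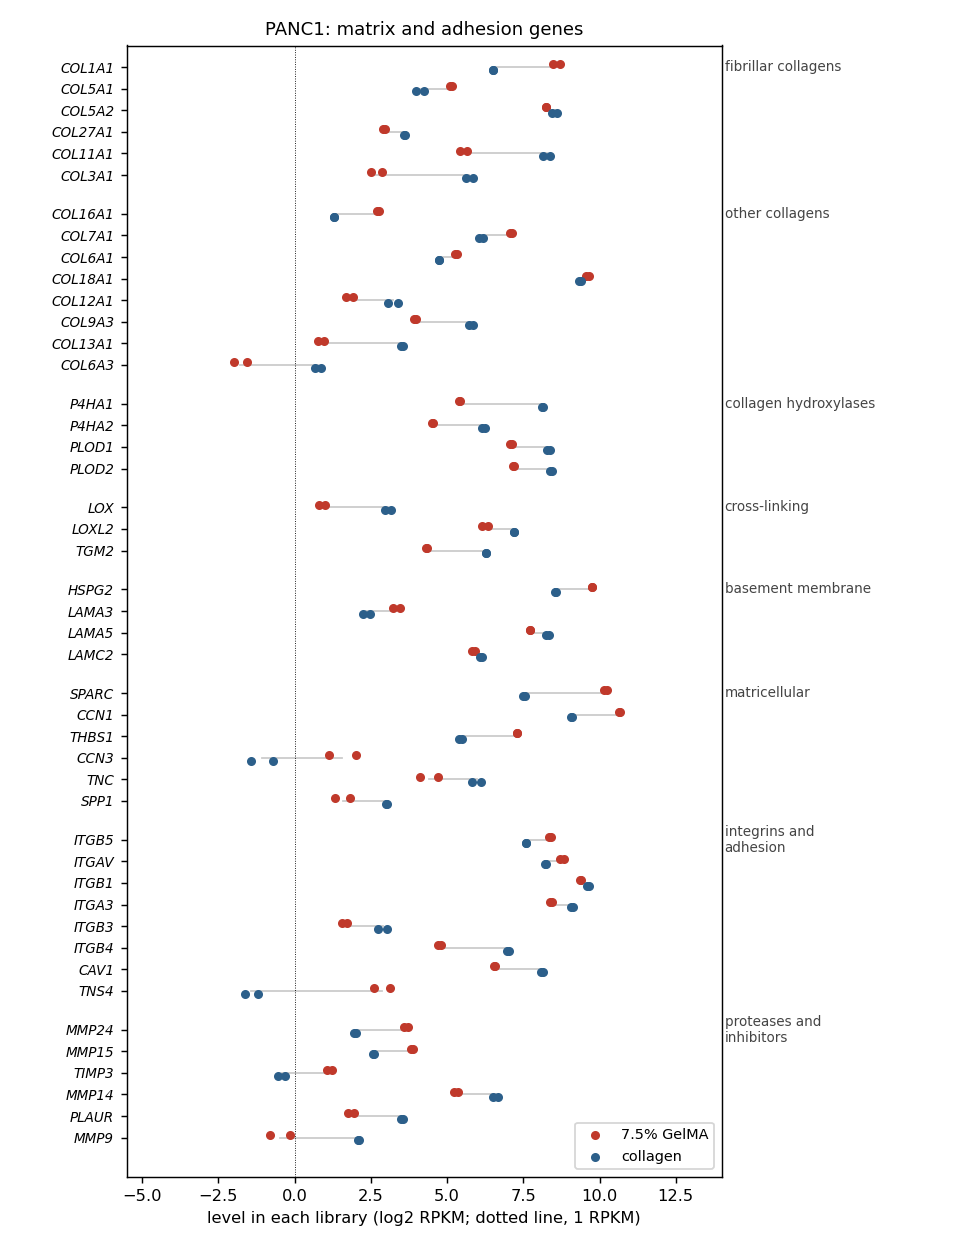
Level of matrix and adhesion genes in each PANC1 library (log2 RPKM), in red for 7.5% GelMA and in blue for collagen, with grey lines between the group means. SPARC and COL1A1 lie higher in 7.5% GelMA and COL3A1, COL11A1, P4HA1, ITGB4 and CAV1 lie higher in collagen.

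Targets of YAP and TEAD, the factors that respond to spreading and stiffness, changed in both directions. Of 22 targets, 9 were higher and 6 lower, with a median of 0.14 log2, and of 9 coactivator and factor genes, 5 were lower and 0 higher by this fit or at an unadjusted p under 0.05. CCN1 had 10.67 and 10.63 log2 RPKM in 7.5% GelMA, against 9.05 and 9.10 in collagen, a difference of 1.58 ± 0.08 (adjusted p = 2.34e-07), whereas CCN2 had 8.78 and 8.90 in 7.5% GelMA, against 8.34 and 8.47 in collagen, and did not pass, although it did in a fit of the 6 PANC1 libraries alone (adjusted p = 0.000431). AMOTL1 and DLC1 were higher (1.84 ± 0.08 and 1.31 ± 0.14), and NT5E, TGFB2 and AXL were lower (-0.74 ± 0.06, -0.88 ± 0.08 and -0.55 ± 0.06). Of 22 actomyosin genes, 7 were higher and 9 lower. For both lists, the shares over all genes were 28.2% higher and 27.7% lower. MYL9, a myosin light chain, had 3.62 and 3.35 in 7.5% GelMA, against 5.16 and 5.18 in collagen, a difference of -1.69 ± 0.14 (adjusted p = 5.22e-06). TPM1 was lower (-0.70 ± 0.07), and FILIP1L and TAGLN2 were higher (1.72 ± 0.12 and 0.73 ± 0.05).

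In the TGF-beta and BMP families, BMP4, a ligand, had 4.40 and 4.35 log2 RPKM in 7.5% GelMA, against 1.66 and 1.79 in collagen, a difference of 2.65 ± 0.14 (adjusted p = 2.74e-07). LTBP2, of the latent TGF-beta binding protein family, had 7.50 and 7.64 in 7.5% GelMA, against 5.70 and 5.75 in collagen, and INHBA, an activin subunit, was lower (-1.68 ± 0.14). The receptor genes TGFBR2 and TGFBR3 were higher (0.55 ± 0.06 and 0.80 ± 0.06), and the mediator genes SMAD2 and SMAD3 were lower (-0.56 ± 0.05 and -0.22 ± 0.04). Wnt targets were higher in 8 of 13 cases, with a median of 0.56 log2 and MYC as the lower one (-0.67 ± 0.03). AXIN2, a feedback inhibitor of the pathway, had 3.28 and 3.05 in 7.5% GelMA, against 1.26 and 1.13 in collagen, and LGR5, the R-spondin receptor, had 2.93 and 3.01 in 7.5% GelMA, against 0.89 and 0.76 in collagen. DKK1, a secreted Wnt inhibitor at a high level, was higher by 1.11 ± 0.04 (adjusted p = 2.72e-08). Of the Notch receptors, NOTCH3 had 2.91 and 2.82 in 7.5% GelMA, against 5.45 and 5.59 in collagen, a difference of -2.66 ± 0.10 (adjusted p = 4.15e-08).

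Among growth factor genes, the neuregulin gene NRG1, a ligand of ERBB3, had 7.74 and 7.67 in 7.5% GelMA, against 6.03 and 5.97 in collagen, a difference of 1.70 ± 0.10 (adjusted p = 4.50e-07). EGFR and ERBB2 were lower (-0.61 ± 0.07 and -0.72 ± 0.04), while the MAPK-induced factor gene ETV4 and the feedback inhibitor gene SPRY2 were higher (1.42 ± 0.07 and 0.88 ± 0.08). Of 18 immediate early genes 8 were higher and 6 lower, with EGR1 higher (0.86 ± 0.08) and JUNB lower (-0.86 ± 0.05). The shares over all genes were 28.2% higher and 27.7% lower.

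Progenitor, identity and neural genes included some of the larger rises, but these lists went both ways. Of 10 progenitor genes, 5 were higher and 1 lower. Of 10 identity genes, 3 were higher and 4 lower. Of 10 neural genes, 4 were higher and 3 lower, among them ENO2 (-2.77 ± 0.18). Over all genes 28.2% were higher and 27.7% lower. CD24, a small surface glycoprotein used as a stem cell marker in pancreatic tumours (ENSG00000272398, chromosome 6, 106969831 to 106975627), had 9.64 and 9.63 log2 RPKM in 7.5% GelMA, against 6.52 and 6.22 in collagen, a difference of 3.27 ± 0.08 (adjusted p = 2.29e-09), or 9.62 times the collagen level. ALDH1A3, a retinal dehydrogenase, had 8.27 and 8.29 in 7.5% GelMA, against 6.31 and 6.22 in collagen. Both genes were abundant and their groups did not overlap. The factor gene SOX2 was lower (-0.81 ± 0.09). GATA6 was higher (1.73 ± 0.14) and ELF3 lower (-1.25 ± 0.14). SCG2, a secretory granule protein, had 7.44 and 7.46 in 7.5% GelMA, against 5.03 and 4.92 in collagen, and TAC3, the neurokinin B precursor (ENSG00000166863, chromosome 12, 57010000 to 57028883), had 2.73 and 2.20 in 7.5% GelMA, against -3.78 and -5.40 in collagen. TAC3 gave the highest difference of all genes, 7.05 ± 0.56 (adjusted p = 4.14e-06), but was under 1 RPKM in collagen. It therefore had to differ by the way it was chosen, and on the log2(RPKM + 1) scale its difference was 2.64.

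Epithelial and mesenchymal markers changed in both directions. Of 18 epithelial genes, 8 were higher and 4 lower, beside 28.2% higher and 27.7% lower over all genes. EPCAM had 4.91 and 4.91 in 7.5% GelMA, against 3.86 and 3.71 in collagen, a difference of 1.12 ± 0.07 (adjusted p = 5.76e-07), and CDH1, E-cadherin, was higher by 0.38 ± 0.06. The desmosomal gene JUP was higher (0.83 ± 0.04), and CLDN7, a tight junction claudin, was lower (-1.93 ± 0.08). VIM, vimentin, had 11.69 and 11.65 in 7.5% GelMA, against 11.73 and 11.73 in collagen, and did not pass. ZEB1 and SNAI1, repressors of E-cadherin, were lower (-0.69 ± 0.11 and -1.30 ± 0.29). FN1, fibronectin, was lower (-0.69 ± 0.23), a call lost without either collagen replicate (adjusted p = 0.0557 and 0.136) or 7.5% GelMA replicate 1 (adjusted p = 0.151). Of 12 mesenchymal genes, 2 were higher, SPARC among them, and 4 lower. The count of higher ones was 1 without 7.5% GelMA replicate 2, and that of lower ones was 2 without collagen replicate 1 or 7.5% GelMA replicate 1.

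Proliferation genes differed by small amounts. Of 30 replication genes, 14 were higher and 4 lower, and of 25 mitosis genes, 9 were higher and 3 lower, with medians of 0.13 and 0.11 log2. MKI67, the proliferation marker, had 8.05 and 7.95 in 7.5% GelMA, against 7.73 and 7.97 in collagen, and did not pass. RRM2, ribonucleotide reductase, was higher by 0.62 ± 0.06, and CDKN1A, a cell cycle inhibitor, by 0.82 ± 0.07 (adjusted p = 8.34e-06). Of 15 p53 targets, 9 were higher and 3 lower, and GDF15 and TP53I3 were higher by 0.89 ± 0.13 and 0.99 ± 0.08. Whether p53 itself acted on these genes was not tested. For all lists of this paragraph, the shares over all genes were 28.2% higher and 27.7% lower. ABCC4, a transporter that exports nucleotides and drugs, was higher by 1.38 ± 0.09 (adjusted p = 8.84e-07), and the lysosomal sialidase gene NEU1 by 1.74 ± 0.07 (adjusted p = 5.47e-08).

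Other genes with the largest changes belonged to no list. Higher in 7.5% GelMA were SOWAHB (3.80 ± 0.19), the guanine deaminase gene GDA (3.45 ± 0.12), GABBR2, a GABA-B receptor subunit (3.28 ± 0.55), the relaxin-family receptor gene RXFP4 (3.23 ± 0.19), the kinase-inactive ephrin receptor gene EPHB6 (3.14 ± 0.06), the zinc finger factor gene GLIS1 (4.45 ± 0.44), GPNMB (3.34 ± 0.12) and PARM1 (3.31 ± 0.26). ALPP and ALPG, alkaline phosphatases of placenta and germ cells, were higher by 3.70 ± 0.36 and 3.39 ± 0.43, and as near-identical neighbours they may share reads. Lower were the cadherin gene PCDH15 (-5.52 ± 0.29), the liprin gene PPFIA4 (-4.10 ± 0.26), the growth factor binding protein gene IGFBP3 (-4.04 ± 0.39), the background potassium channel gene KCNK3 (-3.77 ± 0.69), BCHE, butyrylcholinesterase (-4.06 ± 0.24), the glycogen-targeting subunit gene PPP1R3G (-3.57 ± 0.22) and the factor gene FOXP2 (-3.32 ± 0.19). UPK1A-AS1, an antisense transcript, was lower (-3.84 ± 0.25), but without a stated strand setting its reads cannot be told apart from those of its partner gene.

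The 2 GelMA concentrations were compared directly. At 7.5%, 1367 genes were higher than at 5% (9.52%) and 1421 were lower (9.89%), of which 85 (0.592% of all genes) and 152 (1.06%) changed at least 2-fold. When any 1 of the 4 GelMA libraries was left out, 570 to 719 were higher and 744 to 885 lower. The median size of the difference was 0.14 log2 between the concentrations, while it was 0.24 log2 between 5% GelMA and collagen and 0.29 log2 between 7.5% GelMA and collagen. The comparisons with collagen share the collagen libraries, so the values of the 3 groups are given side by side.

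Hypoxia targets were lower again at 7.5%. Of 34 genes, 23 were lower than at 5% and 2 higher, with a median of -0.73 log2. AK4 had 6.35 and 6.34 log2 RPKM in collagen, 4.74 and 4.73 in 5% GelMA, and 1.20 and 1.44 in 7.5% GelMA. CA9 had 2.18 and 2.31 log2 RPKM in collagen, 0.75 and 0.64 in 5% GelMA, and -4.55 and -3.74 in 7.5% GelMA, and its 7.5% minus 5% difference was -4.84 ± 0.47 (adjusted p = 0.00015). CP had 6.43 and 6.51 log2 RPKM in collagen, 4.18 and 4.37 in 5% GelMA, and 1.46 and 1.26 in 7.5% GelMA. In each the value fell with each step. VEGFA, in contrast, had 9.13 and 9.36 log2 RPKM in collagen, 7.09 and 7.05 in 5% GelMA, and 6.61 and 6.63 in 7.5% GelMA, so most of its fall was already seen at 5%, and EGLN3 and DDIT4 differed between concentrations by 0.09 ± 0.27 and -0.03 ± 0.06, without passing. The 2 genes higher at 7.5% than at 5% were SLC2A1 (0.32 ± 0.09, adjusted p = 0.0401) and STC2 (0.49 ± 0.15, adjusted p = 0.0424). The call of SLC2A1 was lost without any library but 7.5% GelMA replicate 1 (adjusted p between 0.094 and 0.26, and 0.21 log2 without 7.5% GelMA replicate 2), and that of STC2 without any 1 of the 4 (adjusted p between 0.117 and 0.221). Of 22 glycolysis genes, 16 were lower and 1 was higher, MPC1.

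The interferon genes rose at 5% and were lower again at 7.5%. In 5% GelMA 21 of 25 were higher than in collagen and 1 was lower, while over all genes 23.9% were higher and 24.3% lower. At 7.5%, 22 were lower than at 5% and 0 were higher by this fit or at an unadjusted p under 0.05, with a median of -0.70 log2. IFI6, a mitochondrial antiviral protein, had 4.80 and 4.57 log2 RPKM in collagen, 6.40 and 6.32 in 5% GelMA, and 4.63 and 4.77 in 7.5% GelMA. MX1, an antiviral GTPase, had 1.48 and 1.59 log2 RPKM in collagen, 3.49 and 3.43 in 5% GelMA, and 1.34 and 1.90 in 7.5% GelMA, a difference between concentrations of -1.84 ± 0.20 (adjusted p = 0.000267). ISG15 had 3.61 and 3.58 log2 RPKM in collagen, 5.24 and 5.20 in 5% GelMA, and 4.68 and 4.99 in 7.5% GelMA, a difference of -0.39 ± 0.12 (adjusted p = 0.0412) that was lost without either 5% GelMA replicate (adjusted p = 0.163 and 0.13) or 7.5% GelMA replicate 1 (-0.24 log2, adjusted p = 0.254). Against collagen, IFI6 (0.02 ± 0.13) and MX1 (0.08 ± 0.20) did not pass at 7.5%, and ISG15 was higher (1.24 ± 0.12).

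Lipid genes were lower at 7.5% than at 5% as well. Of the 20 cholesterol enzymes, 10 were lower at 7.5% than at 5% and 0 were higher by this fit. At an unadjusted p under 0.05, 1 was higher. HMGCS1, an early enzyme, had 6.15 and 6.14 log2 RPKM in collagen, 6.82 and 6.76 in 5% GelMA, and 6.37 and 6.40 in 7.5% GelMA, a difference of -0.40 ± 0.05 (adjusted p = 0.00062). SCD had 11.53 and 11.60 log2 RPKM in collagen, 11.69 and 11.60 in 5% GelMA, and 10.63 and 10.61 in 7.5% GelMA, a difference of -1.02 ± 0.16 (adjusted p = 0.00212), and FADS2 had 8.61 and 8.40 log2 RPKM in collagen, 8.93 and 8.93 in 5% GelMA, and 7.72 and 7.78 in 7.5% GelMA. INSIG1 had 6.54 and 6.36 log2 RPKM in collagen, 6.81 and 6.77 in 5% GelMA, and 5.88 and 5.86 in 7.5% GelMA. Among chemokines, CXCL2 had 2.85 and 2.64 log2 RPKM in collagen, 3.18 and 3.01 in 5% GelMA, and 0.42 and 0.19 in 7.5% GelMA, so that its level at 7.5% was lower than in either other group.

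Of the 7 aryl hydrocarbon receptor genes, 3 were higher at 7.5% than at 5%, CYP1A1, CYP1B1 and TIPARP. CYP1A1 had 0.06 and 0.57 log2 RPKM in collagen, 1.13 and 0.42 in 5% GelMA, and 3.18 and 3.23 in 7.5% GelMA, a difference between concentrations of 2.43 ± 0.28 (adjusted p = 0.000314). CYP1B1 had 8.08 and 8.23 log2 RPKM in collagen, 8.39 and 8.29 in 5% GelMA, and 9.68 and 9.58 in 7.5% GelMA, and TIPARP had 5.58 and 5.53 log2 RPKM in collagen, 5.62 and 5.57 in 5% GelMA, and 6.76 and 6.80 in 7.5% GelMA, differences of 1.29 ± 0.06 and 1.18 ± 0.05. AHR itself was lower at 7.5% than at 5% (-0.29 ± 0.06), a call lost without any 1 of the 4 GelMA libraries (adjusted p between 0.0564 and 0.0627). Other genes higher at 7.5% were CEMIP, a hyaluronan-degrading protein (1.71 ± 0.10, adjusted p = 8.07e-06), GDA (1.56 ± 0.12), the cell death gene BMF (1.23 ± 0.12), COL1A1 (0.86 ± 0.07) and SCG2 (1.23 ± 0.29), the last with its call lost without any 1 of the 4 libraries (adjusted p between 0.0675 and 0.0781). ITGB4 and TNC were lower (-1.44 ± 0.05 and -1.60 ± 0.24).

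Amino acid genes were higher at 7.5% than at 5%. Of 31, 17 were higher at 7.5% than at 5% and 1 was lower, CEBPB (-0.38 ± 0.06). SLC7A5 had 8.58 and 8.72 log2 RPKM in collagen, 7.72 and 7.61 in 5% GelMA, and 8.40 and 8.57 in 7.5% GelMA, a difference of 0.82 ± 0.08 (adjusted p = 0.000155), and SLC7A11 had 5.15 and 5.42 log2 RPKM in collagen, 3.40 and 3.34 in 5% GelMA, and 4.20 and 4.12 in 7.5% GelMA. CHAC1 and PSAT1 were higher by 0.72 ± 0.13 and 0.51 ± 0.07. Of the 63 ribosomal protein genes 22 were higher and 0 lower by this fit, and 1 was lower at an unadjusted p under 0.05. The count of higher ones was 5 without 5% GelMA replicate 1 or 7.5% GelMA replicate 2, 7 without 7.5% GelMA replicate 1 and 11 without 5% GelMA replicate 2.

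**Figure D4:**
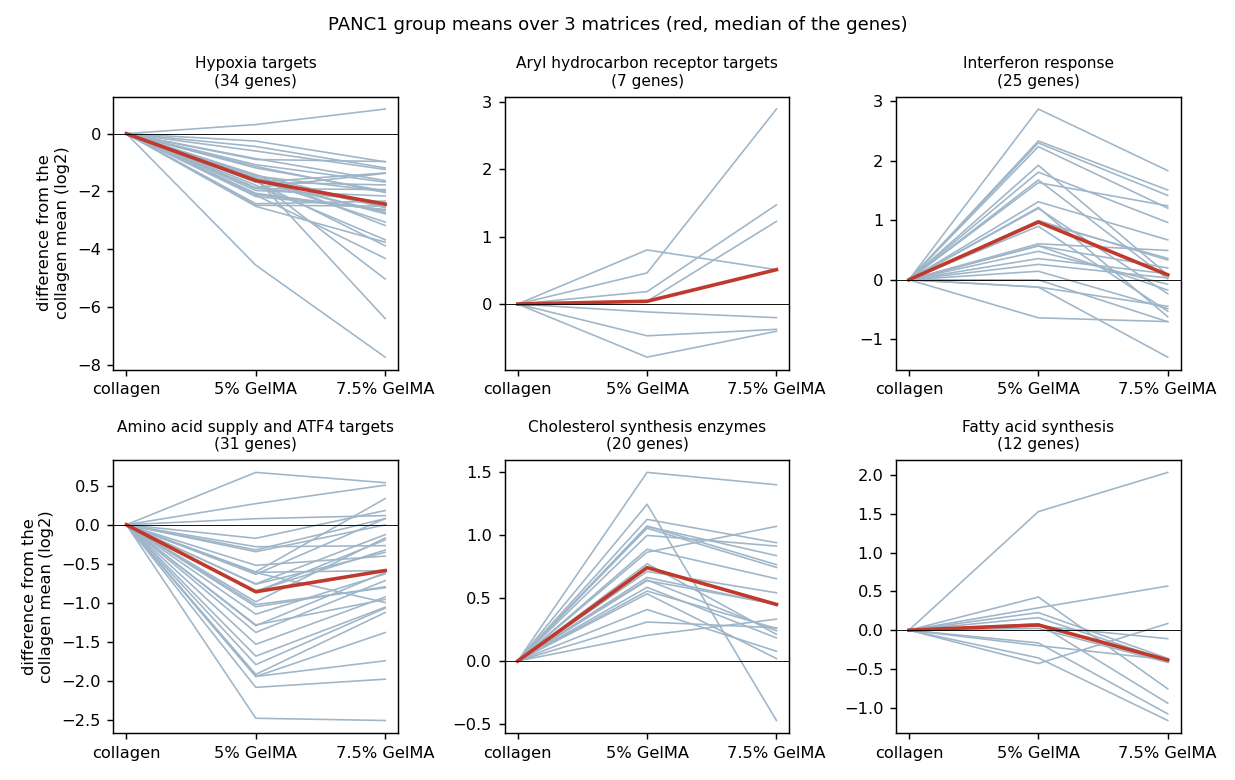
Mean of the 2 libraries in collagen, 5% GelMA and 7.5% GelMA, as the difference from the collagen mean (vertical axis, log2), for 6 gene lists, 1 grey-blue line per gene, with the median of the list in red. The median of the hypoxia targets falls at each step, that of the interferon genes rises to 0.97 at 5% and lies at 0.08 at 7.5%, and CYP1A1 forms the highest line of the receptor panel.

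Over the same 14363 genes, the matrix comparison in BXPC3 gave fewer and smaller changes. The genes were chosen by their level in PANC1. The counts therefore leave out genes expressed in BXPC3 alone and include genes that are low in BXPC3. In BXPC3, 2493 of these genes were higher in 7.5% GelMA (17.4%) and 2084 lower (14.5%), and the median size of a difference was 0.29 log2 in PANC1, against 0.18 log2 in BXPC3. Of the 4046 genes higher in PANC1, 1225 were also higher in BXPC3, which is 30.3% of the PANC1 genes and 49.1% of the BXPC3 genes. Of the 3983 lower genes, 1096 were also lower in BXPC3, which is 27.5% and 52.6%. The PANC1 difference exceeded that of BXPC3 for 2644 genes (18.4%) and fell below it for 2933 (20.4%), by the test of the difference itself.

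Hypoxia targets were lower in both lines, and more so in PANC1. In PANC1 33 of 34 were lower and in BXPC3 27, with medians of -2.44 and -1.03 log2, and for 29 genes the PANC1 difference was the lower one. SLC2A3, CA9 and EFNA3 had to be lower in PANC1 by the way they were chosen. AK4 differed by -5.02 ± 0.19 in PANC1 and by -1.18 ± 0.19 in BXPC3, a difference between lines of -3.84 ± 0.26 (adjusted p = 5.30e-06). VEGFA differed by -2.62 ± 0.07 in PANC1 and by -0.21 ± 0.07 in BXPC3, a difference between lines of -2.42 ± 0.09 (adjusted p = 2.74e-07). The lines did not differ detectably for CA9, at -6.39 ± 0.47 in PANC1 and -6.96 ± 0.47 in BXPC3, a difference between lines of 0.57 ± 0.66 (adjusted p = 0.539), nor for EGLN3, at -2.33 ± 0.27 in PANC1 and -3.28 ± 0.27 in BXPC3, a difference of 0.94 ± 0.38 (adjusted p = 0.0803). PLOD2 went the other way, at -1.24 ± 0.07 in PANC1 and -1.58 ± 0.07 in BXPC3, a difference of 0.34 ± 0.10 (adjusted p = 0.0223). That call was lost without either BXPC3 7.5% GelMA replicate, PANC1 7.5% GelMA replicate 2 or PANC1 collagen replicate 2 (adjusted p between 0.0504 and 0.0744), and the difference was 0.21 log2 without BXPC3 collagen replicate 2.

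Amino acid and tRNA synthetase genes separated the lines. Of 20 synthetase genes, 12 were lower and 2 higher in PANC1, while 16 were higher and 1 was lower in BXPC3, and for 16 the difference between lines passed. GARS1 differed by -0.66 ± 0.07 in PANC1 and by 0.27 ± 0.07 in BXPC3. DDIT3 differed by -1.06 ± 0.08 in PANC1 and by 0.54 ± 0.08 in BXPC3. In BXPC3 12 of 31 amino acid genes were higher and 3 lower, and the PANC1 difference was the lower one for 18 and the higher one for 2.

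Some lipid, contractile and cytokine genes did so too, while cholesterol enzymes were higher in both lines. Of the 20 cholesterol enzymes 14 were higher in PANC1 and 17 in BXPC3, and the PANC1 difference was the higher one for 3 and the lower one for 6. The PANC1 difference was the lower one for 9 of 12 fatty acid genes, 10 of 22 actomyosin genes and 8 of 18 cytokine genes, and the higher one for 1, 5 and 1. SCD, with -0.94 ± 0.16 in PANC1 and 0.53 ± 0.16 in BXPC3, differed between lines by -1.47 ± 0.23 (adjusted p = 0.000808), and FADS1 by -1.39 ± 0.11 (adjusted p = 1.36e-05). In BXPC3 6 of 12 fatty acid genes were higher and 0 lower by this fit or at an unadjusted p under 0.05. MYL9 differed by -1.69 ± 0.14 in PANC1 and by 1.26 ± 0.14 in BXPC3, and TPM1 by -0.70 ± 0.07 and 0.30 ± 0.07. CXCL2 was lower in PANC1 (-2.44 ± 0.17) and higher in BXPC3 (1.05 ± 0.17), and COL13A1 behaved likewise (-2.66 ± 0.25 and 1.47 ± 0.25). TFF3, a secreted trefoil peptide, was higher in PANC1 (1.27 ± 0.24) and lower in BXPC3 (-2.49 ± 0.24), a difference between lines of 3.76 ± 0.34 (adjusted p = 2.85e-05). LTBP2 was higher in PANC1 (1.84 ± 0.05) and lower in BXPC3 (-0.65 ± 0.05).

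Interferon genes were lower in BXPC3, 16 of 25 with 0 higher by this fit or at an unadjusted p under 0.05, and the PANC1 difference was the higher one for 14. OASL differed by 1.83 ± 0.16 in PANC1 and by -0.67 ± 0.16 in BXPC3. The receptor targets CYP1A1, CYP1B1 and TIPARP, higher in PANC1, had BXPC3 differences of 0.49 ± 0.28, -0.03 ± 0.06 and -0.10 ± 0.05, none of which passed, and the difference between lines passed for all 3, at 2.40, 1.50 and 1.32 log2. TNS4, ALPP, SOWAHB and GDA exceeded their BXPC3 differences by 4.30, 3.99, 3.81 and 3.76 log2. PCDH15, the neprilysin gene MME and TFPI2, a protease inhibitor gene, fell below theirs by differences of -5.46, -3.78 and -3.56 log2.

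**Figure D5:**
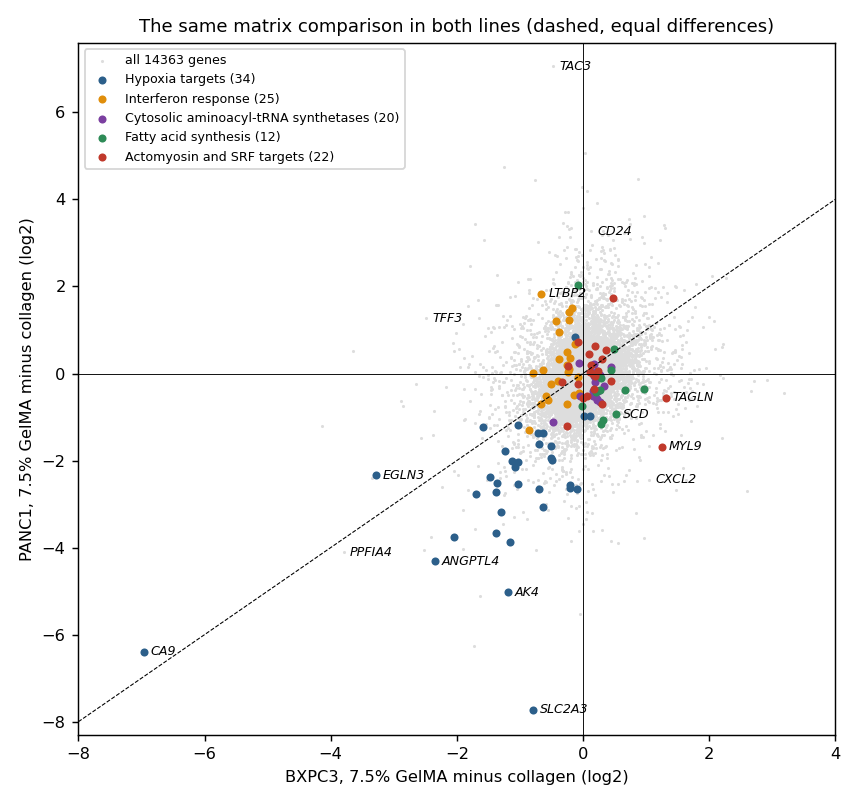
Difference between 7.5% GelMA and collagen in PANC1 (vertical axis, log2) against that in BXPC3 (horizontal axis, log2), 1 point per gene, grey for all 14363 genes and coloured for 5 lists. The dashed line marks equal differences, near which CA9 and EGLN3 lie, while SLC2A3 and AK4 lie far under it and MYL9 and SCD changed in opposite directions in the lines.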

How the data were processed

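Poly-A RNA was sequenced from 12 libraries in 6 groups of 2, and the 4 libraries of PANC1 in 7.5% GelMA and in collagen are the subject here. The deposited values are log2 RPKM, which is read density for each gene on a log2 scale, for 16299 Ensembl genes, with 0 columns of per-sample values left unmapped. HISAT2 2.1.0 and HTSeq were used with GRCh38 (hg38), per the submitters' processing notes, and their roles and settings, the annotation, the strand setting and any offset inside the log2 step are stated in no source used here. Sorted from low to high, the libraries held values within 0.05 log2 of each other at 13917 ranks, so the values were taken as quantile normalised, a step read from the values and recorded in no label. RPKM of this kind keep no library totals, so depth is unknown, no counting interval could be given, and errors come from the spread between libraries alone.

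The 15794 genes that reached 1 RPKM in 2 or more of the 12 libraries were fitted (505 were left out) by limma 3.58.1, run in R 4.3.3 with eBayes and its trend option, with 1 mean per group, 6 residual and 3.89 prior degrees of freedom. All adjusted p-values are from this fit, by Benjamini-Hochberg over the fitted genes of each comparison, and the script was tested on simulated data. Replicates correlated at 0.992 to 0.995 across genes, and no pair of libraries was identical. Symbols came from a table of gene names (16250 IDs) and GENCODE 29 (49 IDs), which also gave positions on GRCh38. Motifs were searched on both strands in the first RefSeq promoter of each gene.

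The members, the 46 gene lists and the rule for naming genes were chosen with earlier results of these data known. Named genes were the 10 highest and 10 lowest called differences at a mean of at least 2 log2 RPKM, the 5 and 5 below it, up to 4 called and 2 other members of each list, further list members by role, the 6 and 6 largest between concentrations, the 5 and 5 largest between lines, and 15 genes followed whatever their values. Genes without a symbol were not named, and some genes that the rule or the lists name are not reported here.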

Additional observations from a re-analysis of the deposited data

Results flagged for a closer look

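Some genes passed in both lines in opposite directions. Of the genes higher in PANC1 in 7.5% GelMA than in collagen, 368 were lower in BXPC3, and of those lower in PANC1, 396 were higher in BXPC3. The genes named above among them follow with the PANC1 difference minus the BXPC3 difference in log2, which passed its own test (limma, difference of the 2 contrasts) in each case, with 2 libraries in each group.

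Lower in PANC1 and higher in BXPC3 were the collagen gene COL13A1 (-4.13), the chemokine gene CXCL2 (-3.49), the myosin light chain gene MYL9 (-2.95) and the transglutaminase gene TGM2 (-2.32). The stress genes OSGIN1 (-1.64), DDIT3 (-1.59), CHAC1 (-1.52) and CEBPB (-1.36), with GCLM (-1.19), GARS1 (-0.93) and ATF4 (-0.53), moved likewise. So did the lipid genes SCD (-1.47), FADS1 (-1.39), INSIG1 (-1.12) and SREBF2 (-0.36), and MYC (-1.02), TPM1 (-1.00) and SDHA (-0.37).

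Higher in PANC1 and lower in BXPC3 were the trefoil peptide gene TFF3 (3.76), OASL (2.50), LTBP2 (2.49), TIMP3 (2.22), CEMIP (1.69), TGFBR3 (1.06), ABCC3 (0.94) and the integrin gene ITGB5 (0.91).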

How the results depend on the processing

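The alternatives were median centring, log2(RPKM + 1) and log2(RPKM + 0.1) scales, no filter or a filter on the 4 libraries, no mean-variance trend, fits of fewer groups, a replicate block, leaving out 1 library, and an adjusted p under 0.01. For 7.5% GelMA against collagen in PANC1, every alternative kept the counts within 1.5 times 4046 higher and 3983 lower, the range without 1 library being 3287 to 3580 and 3227 to 3451. For 7.5% against 5% GelMA, 2111 genes were higher when those groups alone were fitted, 585 were higher and 768 lower at an adjusted p under 0.01, and without 1 library 570 to 719 were higher and 744 to 885 lower. For the difference between lines, 1743 and 1835 passed at an adjusted p under 0.01, and without 1 library 2157 to 2505 and 2368 to 2824. Deviations of same-numbered libraries correlated at -0.048 to 0.077, so no deviation shared between groups was seen. These correlations cannot show whether same-numbered libraries came from the same batch or culture. With a replicate block the counts were 3905 and 3863 for the main comparison, 1132 and 1279 between concentrations, and 2469 and 2737 between lines. Of 238 named genes followed through these alternatives, 12 lost and 4 gained a call for 7.5% GelMA against collagen under some alternative. The sign of small differences that did not pass turned for CD14 (-0.23 to 0.28 when 1 library was left out, negative without collagen replicate 1), for IFI6 (-0.10 to 0.13, negative without collagen replicate 2 or 7.5% GelMA replicate 2), and for MX1 (-0.20 to 0.36, negative without 7.5% GelMA replicate 2). The cause was not tested. Low levels depend on the unknown offset, and depth is unknown.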
